A study of Mus musculus with 8 samples.

Results

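The 10 genes described here encode histone acetyltransferases, the enzyme class that curcumin was given to inhibit in this study. They are *Ep300* and *Crebbp* of the p300/CBP family, *Kat2a*, *Kat2b* and *Elp3* of the GNAT family, and *Kat5*, *Kat6a*, *Kat6b*, *Kat7* and *Kat8* of the MYST family. They were chosen by name out of 21938 protein-coding genes, and each was described by the H3K9ac peaks lying within 1 kb of any of its transcription start sites (TSSs). H3K9ac, an acetylated lysine in the tail of histone H3 found at promoters in use, was measured with an antibody in bone marrow (BM) cells of C57BL/6 mice by ChIP-seq. The study's methods name frozen BM cells, and a figure caption of the study also names c-kit+ cells. All mice carried the *NUP98-HOXD13* transgene, which causes a disease like myelodysplastic syndrome that can progress to leukaemia. They expressed the common form of the transcription factor GFI1 (*GFI1-36S*), its variant with asparagine in place of serine (*GFI1-36N*) or a reduced amount of GFI1 (*GFI1-KD*). For each genotype there was 1 library from vehicle-treated mice and 1 from mice given curcumin at 20 mg/kg in weekly intraperitoneal injections, 6 libraries in all. The age of the mice and the number behind each library are not given in the sources used here. Since a group is a single library, differences between them lack replicates and are given without p-values. The error stated is the 95% counting interval of a library, which covers neither differences between mice nor those between library preparations.

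Histone acetyltransferases move an acetyl group onto lysines of the histone tails, and most do so as the catalytic subunit of a larger complex. p300 and CBP are coactivators that are brought to enhancers and promoters by DNA-bound factors, and curcumin is known as an inhibitor of them. KAT2A and KAT2B, the catalytic subunits of the SAGA and ATAC complexes, acetylate H3K9 itself, whereas the MYST enzymes act mainly on histone H4, H2A or other lysines of H3. A peak at the promoter of such a gene describes the chromatin of the gene, and neither the amount nor the activity of the enzyme was measured.

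The lists held 41312 peaks with vehicle and 20354 with curcumin in *GFI1-36S*, 39564 and 49213 in *GFI1-36N*, and 39272 and 30784 for *GFI1-KD*. Read totals are not part of the lists, but the whole number of fragments at every summit was recovered from the fold enrichment and p-value of each peak, with a median between 24 and 36 fragments per library. A promoter peak was found at 9932 to 12123 of the protein-coding genes per library, the fewest in *GFI1-36S* curcumin. That library stood apart in its marker genes. All 11 T-cell markers had a promoter peak in it, against 6 to 8 in the other 5 libraries, and their summed rank was 457.3 against 59.98 to 119.7. The neutrophil markers had a peak at 1 of 10 genes in it and at 10 of 10 with vehicle, with *Elane*, *Mpo* and *S100a8* among those without one, and the stem and progenitor markers at 1 of 7 against 6. Erythroid markers had a peak at 2 of 9 genes in it and at 9 of 9 with vehicle. In *GFI1-KD*, the neutrophil markers with a peak went from 10 of 10 to 6 of 10 and the erythroid markers from 9 of 9 to 4 of 9. Its stem and progenitor markers had a peak at 7 of 7 genes in both libraries. For *GFI1-36N*, neutrophil markers had a peak at 10 of 10 genes in both libraries. Erythroid markers had one at 7 and 6 of 9 genes there, and stem and progenitor markers at 7 and 6 of 7. The summed rank of the *GFI1-36N* erythroid markers went from 117.6 to 186.9. Those of the neutrophil and of the stem and progenitor markers went from 146.3 to 184.9 and from 266.5 to 293.6. B-cell markers had peaks at 1 to 4 of 7 genes in every library, with *Pax5* and *Ms4a1* at 0 in all 6. In BM cells a lower peak in each cell and fewer cells that carry it cannot be told apart, and the part of these shifts in cell markers in the results below was not tested. The names of the deposited lists of the *GFI1-36S* pair also carry the opposite treatments to the labels, which were followed here. Those of the *GFI1-36N* pair carry different allele marks, +ki for vehicle and kiki for curcumin. The labels do not give zygosity, so a difference in genotype within that pair cannot be told apart from treatment.

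All 10 acetyltransferase genes had a promoter peak in each of the 6 libraries, so none lost and none gained its peak with curcumin in any genotype. Over all promoters with a peak in the pair, 16.5% were lost and 2.03% gained in *GFI1-36S*, 1.84% and 5.93% in *GFI1-36N*, and 6.79% and 1.25% for *GFI1-KD*. Peaks were compared by their rank, which places the fold enrichment of the strongest promoter peak of a gene between 0 and 100 among all genes with a promoter peak in the same library. Acetyltransferase genes stood in the upper part of this scale, with a median rank between 69.4 in *GFI1-KD* vehicle and 80.4 in *GFI1-36S* vehicle and with 7 to 9 of the 10 genes above 50. The 7 lists of related genes described below were also in the upper part in these 2 libraries. Their median ranks ran from 52.7 to 75.7 in *GFI1-KD* vehicle and from 60.6 to 75.2 in *GFI1-36S* vehicle. *Elp3* was below 50 in every library, *Kat2a* in 4 and *Kat6a* in both *GFI1-36N* libraries. The median change in rank from vehicle to curcumin was 1.40 points in *GFI1-36S*, 1.95 in *GFI1-36N* and 7.21 in *GFI1-KD*. Over all genes it was −6.73, 1.98 and −2.37. A gene without a peak in 1 library of a pair is placed at 0 there, and each library ranks its own set of genes. From vehicle to curcumin this set shrank from 11652 to 9932 genes for *GFI1-36S* and from 12036 to 11360 for *GFI1-KD*. For *GFI1-36N* it grew from 11618 to 12123. These medians therefore also depend on which genes were ranked, and the part of each was not tested. With ranks recomputed over only those genes that kept a peak throughout a pair, the medians were 2.85, 1.36 and 8.04 for the acetyltransferase genes and −0.23, 0.05 and 0.11 for all genes.

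**Figure D1:**
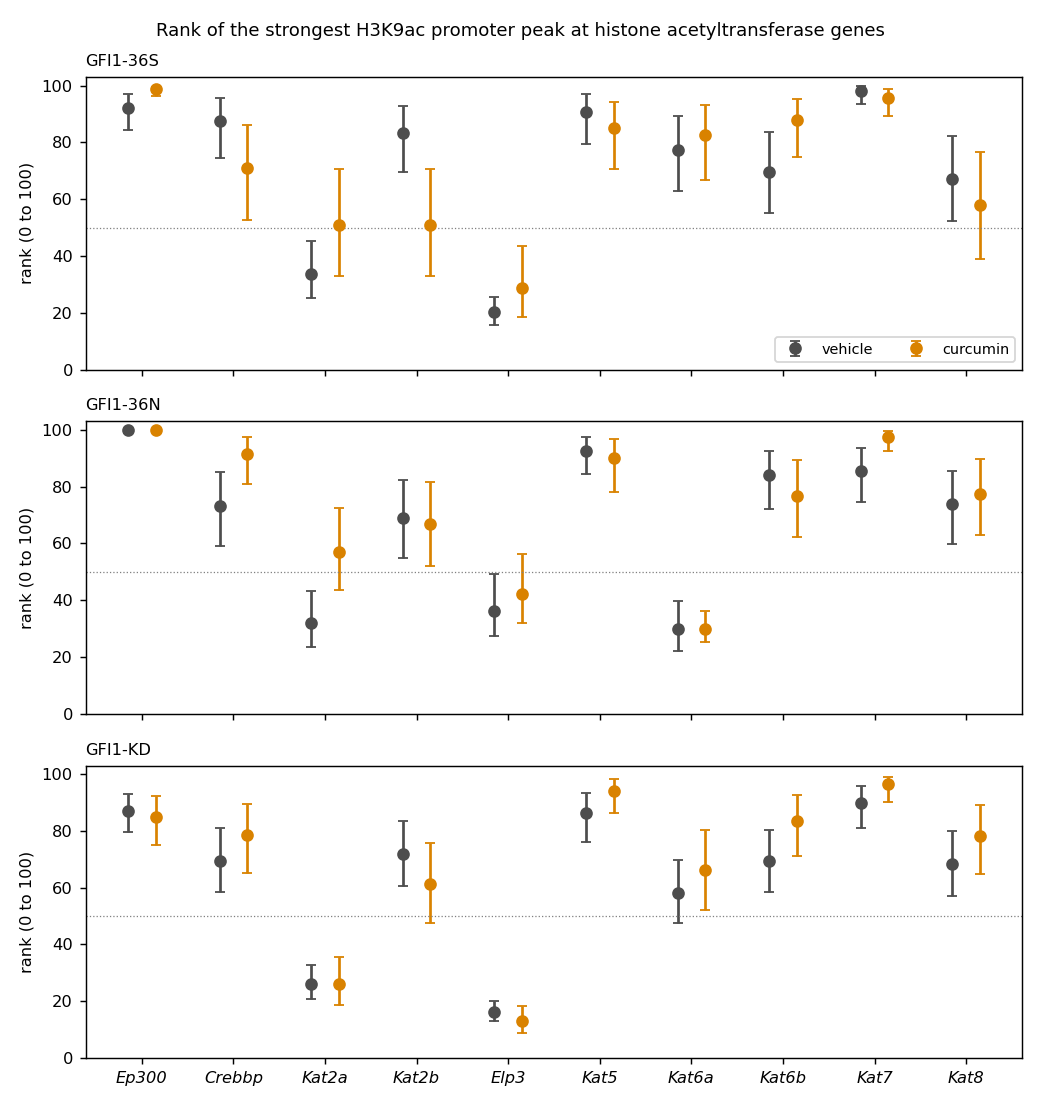
Rank of the strongest H3K9ac promoter peak (vertical axis, 0 to 100 among genes with a promoter peak in the library) of the 10 genes in the vehicle (grey) and curcumin (orange) library of each genotype. Points are single libraries and bars 95% counting intervals; *Ep300* and *Kat7* lie near the top in every library, *Elp3* below 50 in every library, and the *Kat2a* points in *GFI1-36N* (32.0 and 56.9) are the pair farthest apart in that genotype.

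A change in rank of 10 points or more was used to call a gene. In *GFI1-36N*, 3 acetyltransferase genes ranked higher by this rule and none lower, where 19.5% of all genes were higher and 11.0% lower. In *GFI1-KD*, 1 was higher and 1 lower, with 9.38% and 20.7% of all genes. In *GFI1-36S*, 2 were higher and 2 lower, with 14.7% and 41.6% of all genes. Counted in any amount, the genes that ranked lower with curcumin numbered 3 of 10 in the *GFI1-36N* pair, beside 39.4% of all genes. They numbered 4 of 10 in the *GFI1-KD* pair, beside 63.0%, and 5 of 10 in the *GFI1-36S* pair, beside 69.3%. *Crebbp*, *Kat6a*, *Kat7* and *Kat8* ranked higher with curcumin in both *GFI1-36N* and *GFI1-KD*, of which *Kat6a* by only 0.30 points in *GFI1-36N* with a counting standard error of 5.26. *Kat2b* ranked lower in all 3 genotypes, and the other 5 genes changed direction between *GFI1-36N* and *GFI1-KD*. Each of these 5 had a change smaller than its counting standard error in one of these pairs. In *GFI1-36N* these were *Ep300* (0.05 points, standard error 0.33), *Elp3* (5.78, 8.26), *Kat5* (−2.51, 5.77) and *Kat6b* (−7.34, 8.68). In *GFI1-KD* it was *Kat2a* (−0.24, 5.34).

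**Figure D2:**
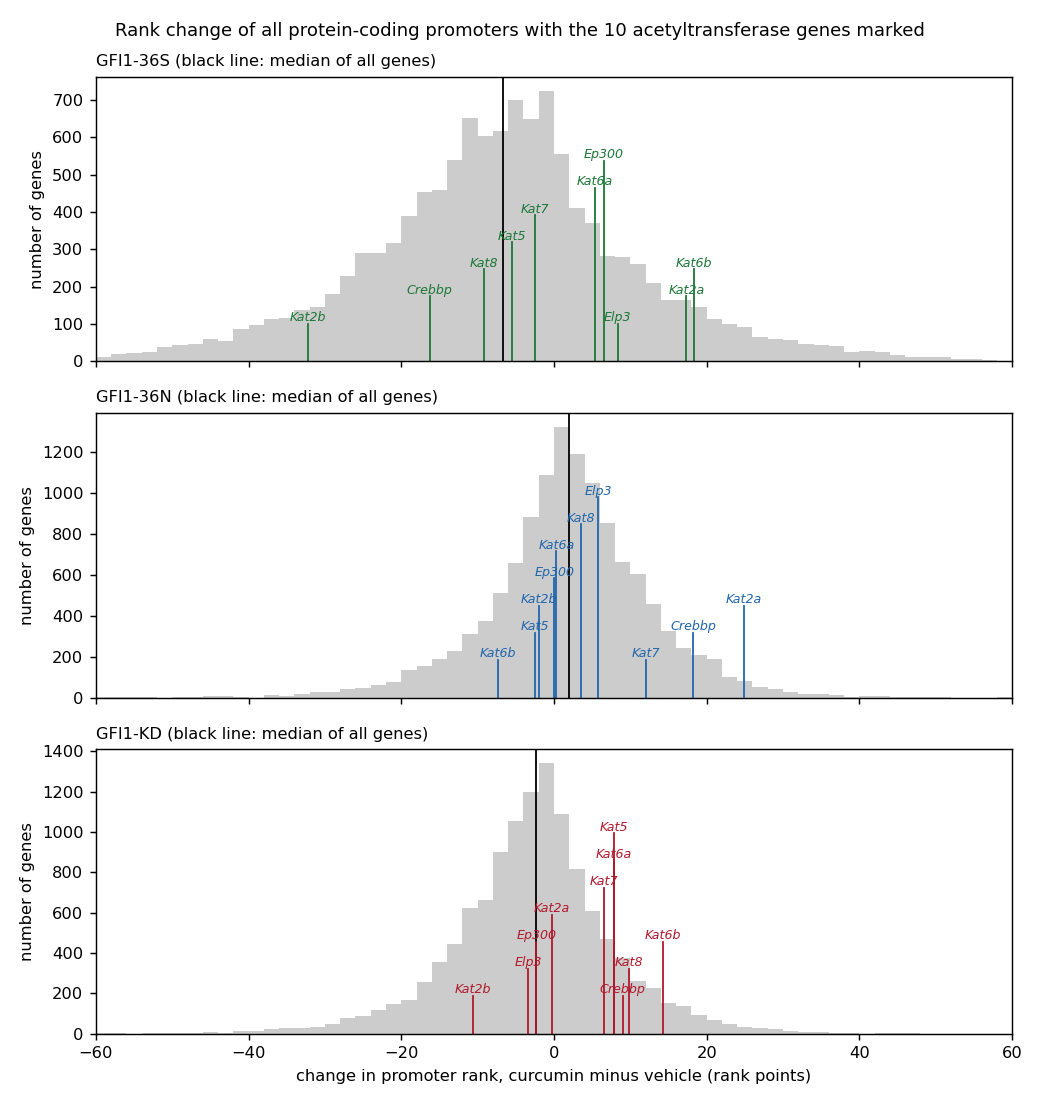
Change in promoter rank from vehicle to curcumin (horizontal axis, rank points) over all protein-coding genes with a promoter peak in either library of the pair (grey histogram, vertical axis: number of genes), one panel per genotype. Coloured lines mark the 10 acetyltransferase genes and the black line the median of all genes, −6.73, 1.98 and −2.37 from top to bottom; the coloured lines lie on both sides of 0 in each panel, and genes beyond the ends of the axis are not drawn.

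*Ep300*, which encodes the coactivator p300, lies on the plus strand of chromosome 15 (chr15:81585351-81652077, mm10). Its strongest promoter peak had 297 fragments at the summit in *GFI1-36S* vehicle and 245 with curcumin, 293 and 294 in *GFI1-36N*, and 384 and 267 for *GFI1-KD*. Ranked by fragments, it stood at 99.6 or above in all 6 libraries, among the tallest promoter peaks of BM. By fold enrichment its rank was 92.1 and 98.7 in *GFI1-36S*, 99.8 and 99.9 in *GFI1-36N*, and 87.1 and 84.8 for *GFI1-KD*. The local background that divides the fragments was 1.63 times the genome background in both *GFI1-36S* and both *GFI1-KD* libraries and equal to it in *GFI1-36N*. Over all genes with a promoter peak in every library, 67.3% to 82.4% of those with a raised local background in one *GFI1-36S* or *GFI1-KD* library also had it in another, and 2.93% to 5.56% of them had it in a *GFI1-36N* library. Fold enrichment was therefore compared within a genotype only. Height here is the number of fragments, multiplied by the scale factor of its library and divided by the genome background of that library. The scale factor was recovered along with the fragments and lay between 0.840 in *GFI1-KD* vehicle and 1 in *GFI1-36N* curcumin. The ratio of height between curcumin and vehicle is given relative to that of the median gene in the pair, with the exact counting interval in parentheses. The median gene's own ratio was 0.585 in *GFI1-36S*, 1.24 in *GFI1-36N* and 0.886 in *GFI1-KD*. A relative ratio above 1 can therefore go with a lower height under curcumin. For *Ep300* the relative ratio was 1.48 in *GFI1-36S* (1.24 to 1.76), 0.999 in *GFI1-36N* (0.847 to 1.18) and 0.973 in *GFI1-KD* (0.829 to 1.14). Before division by the median gene, the *Ep300* ratio in *GFI1-36S* was 0.866. The *Ep300* promoter was therefore among the strongest in every library, and only in the *GFI1-36S* pair did the counting interval of its height leave 1. The *Ep300* gene body outside its promoters held 4 weak peaks in *GFI1-36N* vehicle, 7 in *GFI1-36N* curcumin and 0 in the other 4 libraries.

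*Crebbp* encodes CBP, the paralogue of p300, on the minus strand of chromosome 16 (chr16:4081328-4213997). The fragments at its summit numbered 182 with vehicle and 89 with curcumin in *GFI1-36S*, 158 and 197 in *GFI1-36N*, and 202 and 162 for *GFI1-KD*. The rank went down from 87.5 to 71.2 in *GFI1-36S*, and up from 73.1 to 91.4 in *GFI1-36N* and from 69.5 to 78.5 in *GFI1-KD*. Only the first of these went the other way, and the difference between genotypes was not tested. Relative to the median gene, height with curcumin was 0.877 times that with vehicle in *GFI1-36S* (0.673 to 1.14), 1.24 times in *GFI1-36N* (1.002 to 1.54) and 1.12 times in *GFI1-KD* (0.907 to 1.39). The change in *GFI1-36N* was thus at the edge of its counting interval, and those in the other genotypes lay within it. The peak covered the most upstream TSS in all 6 libraries with a width between 1950 and 3096 bp, and in *GFI1-36S* curcumin a separate peak of 572 bp with 26 fragments lay downstream of the shortened main peak.

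*Kat2a* (GCN5) and *Kat2b* (PCAF) encode the H3K9 acetyltransferases of SAGA and ATAC. Their promoters are shown here with that of *Kat7*, since *Kat2a* and *Kat7* were called higher in *GFI1-36N* and *Kat2b* ranked lower in every genotype. The other gene called higher there, *Crebbp*, is not shown. The sequences are the 250 bases before the RefSeq start on GRCm38.p6, 5′ to 3′ on the strand of the gene, for *Kat2a* chr11:100712468-100712717 (minus strand), for *Kat2b* chr17:53566721-53566970 (plus strand) and for *Kat7* chr11:95310247-95310496 (minus strand). Capitals mark matches on either strand to the CRE half-site TGACG, which lies within the full cAMP response element, or to the CCAAT box. The sequence before the *Crebbp* start held neither of these motifs.
Kat2a: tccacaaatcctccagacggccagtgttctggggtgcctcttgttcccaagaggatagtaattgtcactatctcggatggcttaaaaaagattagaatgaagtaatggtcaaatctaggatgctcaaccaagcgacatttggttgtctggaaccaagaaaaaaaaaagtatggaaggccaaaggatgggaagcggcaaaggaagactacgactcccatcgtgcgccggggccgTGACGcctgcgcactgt
Kat2b: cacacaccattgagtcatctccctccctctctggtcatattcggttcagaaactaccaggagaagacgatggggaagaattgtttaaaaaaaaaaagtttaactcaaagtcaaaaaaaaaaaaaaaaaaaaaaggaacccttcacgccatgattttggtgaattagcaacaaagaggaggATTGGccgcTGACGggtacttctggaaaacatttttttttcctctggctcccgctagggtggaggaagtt
Kat7: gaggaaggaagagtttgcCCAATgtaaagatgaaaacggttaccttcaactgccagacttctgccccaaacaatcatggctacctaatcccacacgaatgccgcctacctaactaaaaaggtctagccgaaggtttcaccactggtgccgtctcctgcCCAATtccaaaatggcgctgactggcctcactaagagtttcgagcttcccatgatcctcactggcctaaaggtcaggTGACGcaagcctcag

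The RefSeq table held windows of 300 bases, from 250 before to 50 after the start, for 8 of the 10 genes, *Kat6a* and *Elp3* being without one. The CRE half-site TGACG was found in a window of 5 of these 8 genes (*Kat2a*, *Kat2b*, *Kat5*, *Kat7* and *Kat8*) and in 20.9% of all 32534 windows. The full element TGACGTCA was in none of the 8 and in 1.80% of all windows, and the GFI1 core AAATCAC likewise in none and in 3.20%. The GC box GGGCGG was in 5 (*Ep300*, *Crebbp*, *Kat5*, *Kat6b* and *Kat8*) against 35.9%, the CCAAT box in 4 (*Kat2b*, *Kat5*, *Kat7* and *Kat8*) against 37.4%, and the ETS motif CCGGAAG in 3 (*Kat5*, *Kat7* and *Kat8*) against 8.92%. Several of these genes have a pair of windows, and each gene was counted once if any of its windows matched. The shares over all windows are per single window, so the gene counts and these shares are not in the same unit. The first windows were rich in CpG, with an observed over expected ratio between 0.582 and 1.02 and a median of 0.743 against 0.387 over all windows, and their GC content ran from 47.0% in *Kat2b* to 82.0% in *Crebbp*. For the second windows this ratio was 0.861 in *Kat5* and 0.734 in *Kat6b*, but 0.357 in *Kat2b* and 0.305 in *Kat8*. The *Kat2a* peak lay mostly downstream of the start and covered 58 to 127 of the 300 bases of its window, whereas the *Crebbp*, *Ep300* and *Kat7* windows were covered by peaks in full in the *GFI1-36N* and *GFI1-KD* libraries.

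*Kat2a* (chr11:100704746-100712465) had the largest rise in rank of the 10 genes in *GFI1-36N*. Its summit held 90 fragments with vehicle and 70 with curcumin in *GFI1-36S*, 88 and 131 in *GFI1-36N*, and 92 and 73 for *GFI1-KD*. The rank was 33.7 and 51.1 in *GFI1-36S*, 32.0 and 56.9 in *GFI1-36N*, and 26.1 and 25.9 for *GFI1-KD*. The *GFI1-36N* rise of 24.9 points had a counting standard error of 8.87 and was at least as large as that of 98.0% of all genes of the pair. With the widest promoter peak in place of the strongest, which takes the one near *Hspb9* further upstream, it was 6.66 points and no longer a call. Height relative to the median gene was 1.48 times that of vehicle in *GFI1-36N* (1.122 to 1.964), 1.40 times in *GFI1-36S* (1.01 to 1.93) and 1.11 times in *GFI1-KD* (0.805 to 1.53). Intervals thus lay above 1 in *GFI1-36N* and *GFI1-36S* and spanned it in *GFI1-KD*, and the peak was among the narrowest of the group in every library at 508 to 986 bp. A weaker peak upstream, also within 1 kb of the TSS of the neighbouring *Hspb9*, was listed in all libraries but *GFI1-36S* curcumin.

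*Kat2b* (chr17:53566861-53672720) was the member that ranked lower with curcumin in every genotype. Its rank was 83.3 and 51.1 in *GFI1-36S*, 69.0 and 67.0 in *GFI1-36N*, and 72.0 and 61.4 for *GFI1-KD*, from 172 and 70, 151 and 146, and 208 and 132 fragments. The differences were −32.3 points with a counting standard error of 11.3, −2.01 with 10.3 and −10.6 with 9.25, so that of *GFI1-36N* was far inside its counting error. Relative to the median gene, height was 0.730 times that of vehicle in *GFI1-36S* (0.545 to 0.969), 0.962 times in *GFI1-36N* (0.761 to 1.22) and 0.888 times in *GFI1-KD* (0.708 to 1.11). Only the first of these intervals lay below 1, in the pair whose curcumin library stood apart in its markers. The *Kat2b* peak was the broadest of the group in 3 libraries, at 4100 and 4936 bp in *GFI1-36N* and 4825 bp in *GFI1-KD* vehicle. In *GFI1-KD* curcumin it was listed as a peak of 2010 bp downstream and one of 568 bp upstream of the start, with a gap between them, and its width was 0.511 times that of vehicle relative to the median gene. The same split with a gap was listed in both *GFI1-36S* libraries and in *GFI1-36N* vehicle. In the body of the gene 3 to 8 further peaks were listed per library.

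*Elp3* encodes the catalytic subunit of Elongator, a complex known mainly for its modification of transfer RNA, on chromosome 14 (chr14:65530449-65593075, minus strand). It held the lowest rank of the group in both *GFI1-36S* and both *GFI1-KD* libraries, with 20.3 and 28.6 in *GFI1-36S*, 36.3 and 42.1 in *GFI1-36N*, and 16.3 and 13.0 for *GFI1-KD*. Its summit had 64 to 107 fragments. The local background at this promoter was 1.55 to 1.75 times the genome background in the *GFI1-36S* and *GFI1-KD* libraries and equal to it in *GFI1-36N*. Ranked by fragments alone it stood at 31.3 and 62.0 in *GFI1-36S*, 35.9 and 41.7 in *GFI1-36N*, and 26.5 and 20.0 for *GFI1-KD*. Height with curcumin was 1.64 times that of vehicle relative to the median gene in *GFI1-36S* (1.20 to 2.23), the only one of the 10 genes past 1.5 in that pair, where 9.22% of all genes were higher and 9.79% lower by that size. By fold enrichment *Elp3* was likewise the only one, with 9.68% of all genes higher by that size. The peak was listed from 40 and 52 bp downstream of the first TSS in *GFI1-36S* and *GFI1-KD* curcumin and at −245 and −292 bp from it with vehicle.

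**Figure D3:**
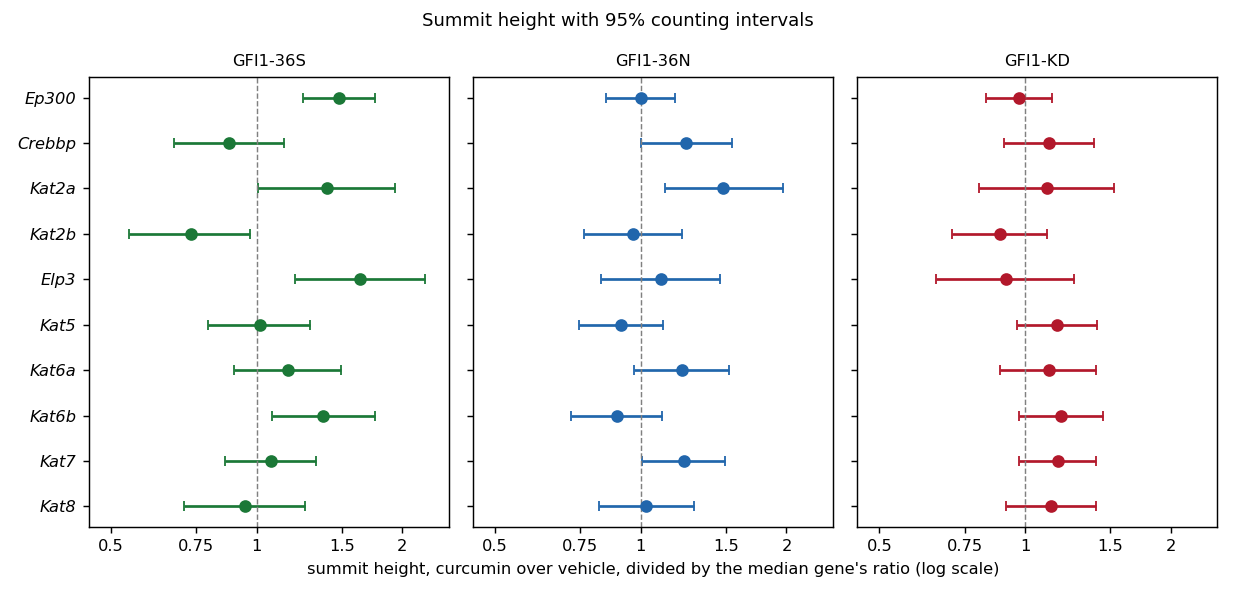
Ratio of summit height between curcumin and vehicle, divided by that of the median gene of the pair (horizontal axis, log scale), for the 10 genes in each genotype. Bars are exact 95% counting intervals; in *GFI1-36N* those of *Kat2a*, *Crebbp* and *Kat7* lie above 1 (dashed), and in *GFI1-KD* every bar crosses 1.

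Of the MYST genes, *Kat7* (HBO1, chr11:95274259-95310246, minus strand) ranked at 85.6 or above in every library. It encodes the main acetyltransferase of H3K14 and acts with BRPF and JADE scaffolds. Its rank was 98.2 and 95.6 in *GFI1-36S*, 85.6 and 97.6 in *GFI1-36N*, and 89.9 and 96.4 for *GFI1-KD*, from 230 and 137, 186 and 229, and 262 and 219 fragments. The rise of 12.0 points in *GFI1-36N* had a counting standard error of 5.12, and height was 1.23 times that of vehicle relative to the median gene (1.006 to 1.495). In *GFI1-KD* the corresponding ratio was 1.17 (0.973 to 1.40) and in *GFI1-36S* 1.07 (0.858 to 1.33). *Kat7* therefore ended above rank 95 in all 3 curcumin libraries. A broad peak of 2623 to 3303 bp covered the start in 5 libraries, whereas in *GFI1-36S* curcumin it was listed as 3 peaks of 620, 569 and 238 bp. A weak peak of 22 to 36 fragments near a start inside the gene, 18085 to 18530 bp from the first TSS, was present in the 4 *GFI1-36N* and *GFI1-KD* libraries and absent from both *GFI1-36S* lists.

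*Kat6a* (MOZ, chr8:22859535-22943259) and *Kat6b* (MORF, chr14:21481434-21672478) encode paralogues that acetylate histone H3 with BRPF scaffolds, and *Kat6a* is known as a fusion partner in acute myeloid leukaemia. The rank of *Kat6a* was 77.4 and 82.7 in *GFI1-36S*, 29.7 and 30.0 in *GFI1-36N*, and 58.2 and 66.1 for *GFI1-KD*. The *GFI1-36N* difference lay far inside its counting error and became −2.70 points over the genes that kept a peak in both libraries. The low ranks of the *GFI1-36N* pair came with a local background at the downstream peak 2.65 and 2.39 times the genome background, whereas the 4 others were equal to it. In *GFI1-36N* vehicle the strongest peak by fold enrichment was the upstream one with 83 fragments, whereas the downstream peak had 146. Ranked by fragments, *Kat6a* stood at 65.6 and 84.4 in *GFI1-36N*, a rise of 18.8 points, and its height relative to the median gene was 1.21 times that of vehicle (0.970 to 1.52). The *GFI1-36N* value of *Kat6a* thus depended on whether the local background was divided out.

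*Kat6b* ranked 69.5 and 87.9 in *GFI1-36S*, 84.1 and 76.8 in *GFI1-36N*, and 69.3 and 83.5 for *GFI1-KD*. Its summit held 158 and 121, 182 and 163, and 218 and 185 fragments. The rise of 14.2 points in *GFI1-KD* was the only one of 10 points or more in that pair and had a counting standard error of 7.82. With the widest promoter peak in place of the strongest, which takes the upstream peak, it was −0.54 points in *GFI1-KD* and 20.7 in *GFI1-36N*. Over genes that kept a peak in both *GFI1-KD* libraries, *Crebbp*, *Kat6a* and *Kat8* also passed 10 points, with 10.98, 10.51 and 11.87. Height relative to the median gene was 1.19 times that of vehicle in *GFI1-KD* (0.970 to 1.45), 0.891 times in *GFI1-36N* (0.717 to 1.11) and 1.37 times in *GFI1-36S* (1.08 to 1.75). Only the interval of *GFI1-36S* left 1. The *Kat6b* peaks lay at starts 16968 to 20741 bp downstream of its most upstream TSS, where no peak was listed in any library, and came as a weaker upstream and a stronger downstream peak in each.

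*Kat5* (TIP60, chr19:5603014-5610237, minus strand), the enzyme of the NuA4 complex, ranked between 85.2 and 94.2. Its summit had 108 to 247 fragments. The differences in rank, curcumin minus vehicle, were −5.49 points in *GFI1-36S*, −2.51 in *GFI1-36N* and 7.91 in *GFI1-KD*, each with a height interval that spanned 1. A further peak at its 3′ end, shared with the TSS of *Rnaseh2c*, was listed in every library. *Kat8* (MOF, chr7:127912516-127925837), the H4K16 acetyltransferase of the MSL and NSL complexes, ranked between 57.9 and 78.0 with 76 to 199 fragments. The differences were −9.23 points in *GFI1-36S*, 3.59 in *GFI1-36N* and 9.83 in *GFI1-KD*, with height intervals that also spanned 1. For neither gene was a difference between vehicle and curcumin detectable at this depth.

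**Figure D4:**
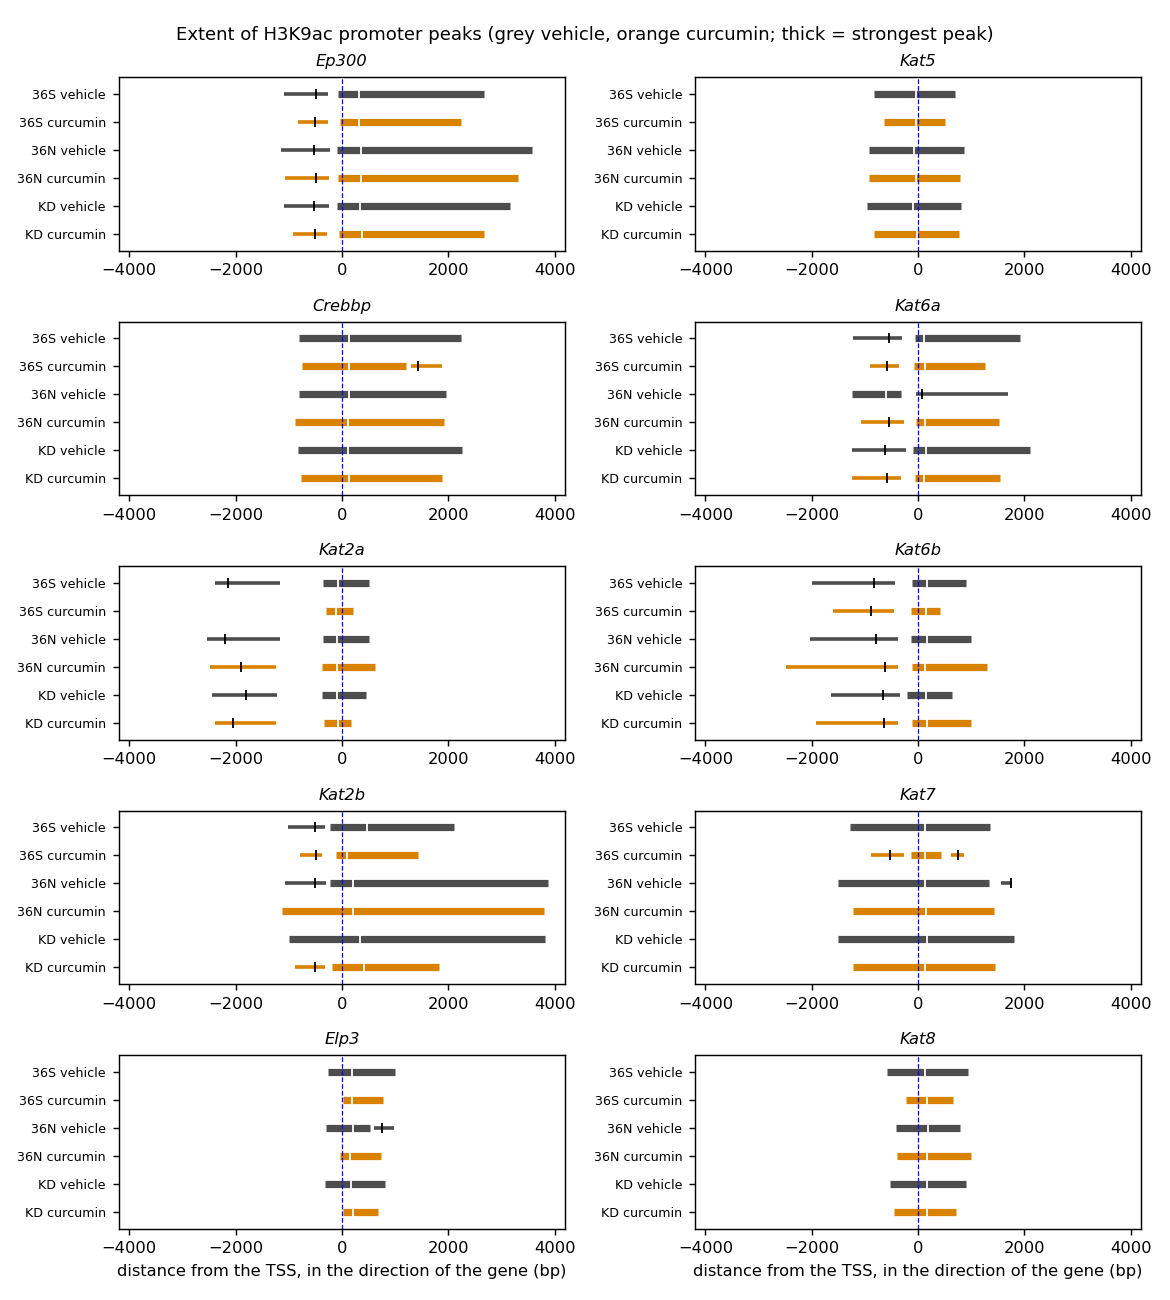
Promoter peaks of the 10 genes in the 6 libraries (rows; grey vehicle, orange curcumin) by distance in bp from a TSS at 0 (dashed; the one nearest the summit of the strongest peak in *GFI1-36S* vehicle), in the direction of the gene. Thick bars are the strongest peaks, thin bars other promoter peaks within the plotted range and ticks the summits. *Ep300*, *Kat6a* and *Kat6b* show an upstream and a downstream peak in every library, and *Kat2b* in 4.

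In the *GFI1-36N* and *GFI1-KD* pairs none of the 10 genes passed 1.5-fold against the median gene in either direction. By fold enrichment 3.75% of all genes were higher and 3.67% lower by that size in *GFI1-36N*, and 3.83% and 4.43% for *GFI1-KD*. By height the shares were 3.66% and 3.72% in *GFI1-36N*, and 3.67% and 4.27% for *GFI1-KD*. The height interval of 4 genes lay above that of the median gene in *GFI1-36S* (*Ep300*, *Kat2a*, *Elp3* and *Kat6b*) and that of *Kat2b* below it, where 15.8% and 13.5% of all genes did. In *GFI1-36N* the counts were 3 above (*Crebbp*, *Kat2a* and *Kat7*) and none below, with 7.42% and 7.21% of all genes, and in *GFI1-KD* none either way, with 7.73% and 7.97%. The width of the strongest peak changed by 1.5-fold relative to the median gene for *Kat7* in *GFI1-36S* (0.359 times), for *Kat6a* in *GFI1-36N* (1.64 times, where different peaks were compared) and for *Kat2b* and *Kat6b* in *GFI1-KD* (0.511 and 1.62 times). Among all genes 21.7% were narrower in *GFI1-36S*, 7.20% narrower and 8.61% wider in *GFI1-36N*, and 15.9% narrower and 3.07% wider in *GFI1-KD* by the same rule. No other protein-coding gene had a TSS within 1 kb of the strongest promoter peak of any of the 10.

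The genes of the complexes in which these enzymes work were given by 7 lists, 81 genes in all, of which *Elp6* had no promoter peak in any library. In the *GFI1-36N* and *GFI1-KD* pairs 1 of them gained a promoter peak, *Cited1* in *GFI1-36N*, and none lost one. In *GFI1-36S*, *Phf20* and *Cited4* lost theirs. These 3 are named for their count and were chosen after their values were seen. Over all promoters with a peak in the pair, 5.93% were gained and 1.84% lost in *GFI1-36N*. The shares were 1.25% and 6.79% in *GFI1-KD*, and 2.03% and 16.5% in *GFI1-36S*. The medians of the change in rank ran from −2.35 to 5.01 points over the lists in *GFI1-36N*, from −2.96 to 3.99 in *GFI1-KD* and from −16.0 to 0.15 in *GFI1-36S*, beside 1.98, −2.37 and −6.73 over all genes. The counts of genes that ranked lower, given for each list below, stand beside 39.4% of all genes for the *GFI1-36N* pair, 63.0% for *GFI1-KD* and 69.3% for *GFI1-36S*, and nothing particular to a list is read from them.

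Among other acetyltransferases and acetyltransferase coactivators, 5 of 10 ranked lower with curcumin in *GFI1-36N* and 4 in *GFI1-KD*. *Kat14*, the second acetyltransferase of ATAC, had the largest rise in both, from 60.8 to 73.8 and from 58.2 to 71.3. *Taf1*, the largest subunit of TFIID, went from 70.8 to 58.3 in *GFI1-36N*, and *Cdyl*, a chromodomain protein of repressive complexes, from 89.2 to 75.9 in *GFI1-KD*. Of the SAGA and ATAC subunits, 10 of 22 ranked lower in *GFI1-36N* and 13 in *GFI1-KD*, with medians of 1.37 and −0.78 points. *Taf5l*, a core subunit of SAGA, went from 50.1 to 72.1 and *Mbip* of ATAC from 83.4 to 63.9 in *GFI1-36N*. In *GFI1-KD*, *Zzz3* of ATAC went from 60.3 to 87.0. *Taf6l* had the largest fall there, from 90.1 to 45.2, but its strongest peak lay at another of its starts in each library, chr19:8772623-8776081 with vehicle and chr19:8785415-8786777 with curcumin.

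Of the TIP60 subunits, 8 of 17 ranked lower in *GFI1-36N* and 9 in *GFI1-KD*, and the medians were 2.43 and −0.19 points. *Meaf6*, a small subunit shared with the MOZ/MORF and HBO1 complexes, went from 22.6 to 99.9 in *GFI1-36N*, the largest change among the 81 genes in any pair. Its promoter peak had 68 fragments over 2229 bp with vehicle and 306 fragments over 10190 bp with curcumin (chr4:125080830-125091019), and between 69 and 130 fragments over 1483 to 2373 bp in the 4 libraries of the other genotypes. *Morf4l2* went from 57.6 to 37.8 in *GFI1-36N* and from 57.3 to 45.9 by fragments. Its local background was 1.19 times the genome background in the curcumin library of that pair and equal to it with vehicle. *Mrgbp* went from 65.0 to 40.5 in *GFI1-KD* (62.4 to 54.9 by fragments, with a local background 1.33 times the genome background in the curcumin library of that pair alone). *Ruvbl1*, an ATPase of the complex, went from 34.9 to 48.5 in *GFI1-KD*.

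Of the scaffold and reader subunits of MOZ/MORF and HBO1, 2 of 8 ranked lower in *GFI1-36N* and 5 in *GFI1-KD*. *Jade1* went from 57.6 to 81.2 and *Brpf1* from 97.7 to 92.6 in *GFI1-36N*. In *GFI1-KD*, *Jade2* went from 60.3 to 22.3 and *Ing4* from 47.3 to 68.6. Of the MSL and NSL subunits, 3 of 10 ranked lower in *GFI1-36N* and 7 in *GFI1-KD*. *Kansl2* of NSL had the largest rise in both, from 63.7 to 89.7 and from 40.3 to 44.3, *Ogt*, which adds N-acetylglucosamine to proteins, went from 64.3 to 56.9 in *GFI1-36N*, and *Msl1* from 92.9 to 84.6 in *GFI1-KD*.

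Of the 4 Elongator subunits with a peak, the numbers that ranked lower were 2 for the *GFI1-36N* pair, 3 for *GFI1-KD* and 4 for *GFI1-36S*. *Elp4* went from 34.77 to 49.96 in *GFI1-36N*, and *Elp5* from 83.6 to 84.0 in *GFI1-KD*. Of the p300/CBP partner factors, 1 of 9 ranked lower in *GFI1-36N* and 7 of 8 with a peak in *GFI1-KD*. *Myb*, the progenitor transcription factor that binds p300/CBP, went from 45.4 to 88.7 in *GFI1-36N*, with 118 and 188 fragments at the summit, and from 46.9 to 46.8 in *GFI1-KD*. *Cited2*, which competes for p300/CBP, went from 84.5 to 83.4 in *GFI1-36N*, and the CREB coactivators *Crtc3* and *Crtc2* from 71.6 to 58.4 and from 44.6 to 50.9 in *GFI1-KD*.

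**Figure D5:**
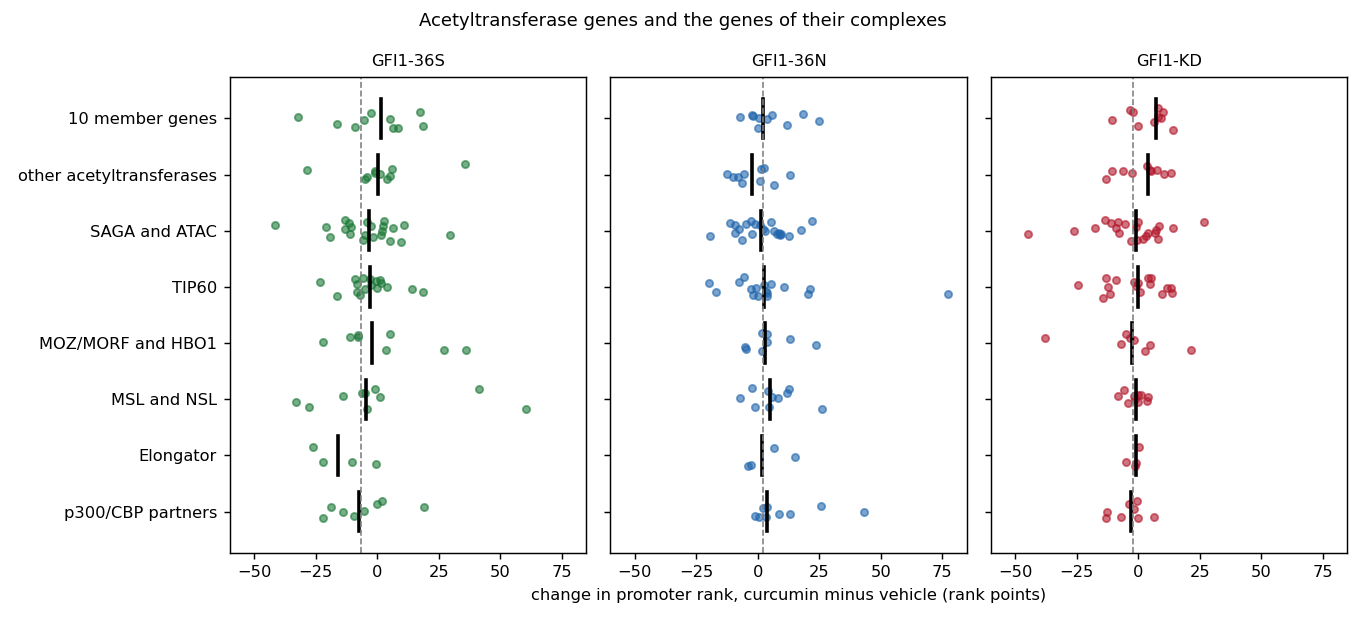
Change in promoter rank from vehicle to curcumin (horizontal axis, rank points) of the 10 acetyltransferase genes and of the genes of 7 lists (rows), one panel per genotype. Each point is a gene with a promoter peak in either library, black bars are medians and the dashed line is the median of all genes; the point far to the right in *GFI1-36N* is *Meaf6* (77.3 points).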

How the data were processed

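H3K9ac peaks of 6 libraries, 1 per genotype and treatment, were analysed, and the input and IgG libraries were not used here. According to the study's methods, the authors trimmed reads with Trim Galore, aligned them to mm10 with BWA-MEM, called peaks per library with MACS2 and removed black-listed regions. Their processing notes also name SAMtools, Picard and deepTools, and the versions, the control of each list and the threshold are not given in the sources used here. The deposited lists give for each summit the fold enrichment over the local background, the −log10 p-value and −log10 q-value, and a display score, none scaled between libraries. Fold enrichment and −log10 p together gave the fragments at every summit, within a tolerance of 0.002 on the −log10 p scale for 100% of peaks.

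A promoter peak overlapped the window of 1 kb around a TSS of any transcript of 21938 protein-coding genes (GENCODE M21) by at least 1 bp. The strongest by fold enrichment was ranked. Intervals are exact 95% Poisson or conditional binomial intervals for counting error alone. Calls needed 10 rank points or a 1.5-fold change against the median gene. With 1 library per group no test was made. Each list was represented by its largest fall and rise in the *GFI1-36N* and *GFI1-KD* pairs. Some genes that meet this rule are not reported here. Members and lists were chosen with earlier results of these data known. Promoter sequences are from RefSeq. Alternatives varied the window, peak filter, ranking measure, choice of TSS and gene set, and exchanged the *GFI1-36S* treatments. Scripts were tested on simulated data and ran in Python 3.11.15 with numpy 2.4.6, scipy 1.17.1, pandas 2.3.3 and matplotlib 3.10.9.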

Additional observations from a re-analysis of the deposited data

Results flagged for a closer look

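Among the 10 acetyltransferase genes and the genes with the largest rise or fall of each list, the rank of the promoter peak moved by 10 points or more in opposite directions between genotypes for 4, and none of these differences was tested. Other genes of the lists were not included in this count. The list genes in it were picked because their changes were the largest of their list, which favours moves of this size. How many of all genes moved this far in opposite directions was not computed. The count therefore has no share to stand beside, and nothing particular to these 4 genes is read from it. *Crebbp* changed by −16.3 points with curcumin in *GFI1-36S* and by 18.3 in *GFI1-36N*, and *Elp4* of Elongator by −25.9 and 15.2. *Jade2*, a scaffold of HBO1, changed by 27.2 points in *GFI1-36S*, 13.2 in *GFI1-36N* and −37.9 in *GFI1-KD*. *Mrgbp* of the TIP60 complex changed by 10.8 points in *GFI1-36N* and −24.6 in *GFI1-KD*, but by fragments its *GFI1-KD* rank went from 62.4 to 54.9, less than 10 points. The *GFI1-36S* curcumin library stood apart in its T-cell and neutrophil markers, and with its treatments exchanged the *GFI1-36S* values change sign.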

How the results depend on the processing

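Every group holds 1 library, so no value rests on more than a single pair, and depth limits each to its counting interval. No paired analysis was possible because each group holds 1 library. Over the alternatives, 192 of the summary values stayed within the spread set for them and 4 moved. For single genes 382 stayed, 10 moved and 5 reversed. A value inside its spread counted as stayed even where its sign changed, and only rank changes of 10 points or more could count as reversed. The median rank change over the members in *GFI1-36S* kept its sign in 10 of 13 settings without the exchange, between −2.43 and 5.74 points. Exchange of the treatments turns the sign of every rank change of that pair by construction. With the *GFI1-36S* treatments exchanged, as the names of the lists would have it, the members' median log2 fold ratio minus that of all genes became −0.15, and the rank changes became 16.3 points for *Crebbp*, −17.3 for *Kat2a*, 32.3 for *Kat2b* and −18.4 for *Kat6b*. Taking the widest promoter peak of each gene, the same median in *GFI1-36N* was 0.21 and that of width −0.11, and the *Kat6b* change in *GFI1-KD* became −0.54 points. Among genes with a peak in both *GFI1-KD* libraries, 2 members ranked lower. In *GFI1-36N*, *Kat6a* changed by 20.5 points ranked by −log10 p and by 18.8 by fragments, and by −2.70 over the genes that kept a peak, and with the widest peak *Kat2a* changed by 6.66 and *Kat6b* by 20.7. The use of 1 TSS per gene gave no value for *Kat6b*. The restriction to TSSs of protein-coding transcripts was chosen after seeing the data. The causes were not tested.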
